A study of Mus musculus with 6 samples.

Results

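The genes described here make, break down and sense the prostaglandins. They are Ptgs1, Ptgs2, Ptges, Ptgis, Ptgds, Hpgd and Ptger1 to Ptger4, 10 in all, chosen by name and each found among the 56196 genes of the deposited count tables. RNA was sequenced from 6 mouse osteosarcomas, 3 in each of 2 groups. In the triple knockout group (TKO), tumours arose in mice labelled Osx1-Cre;Rb1lox/lox;p53lox/lox;SKP2-/-. In the double knockout group (DKO) the label was Osx1-Cre;Rb1lox/lox;p53lox/lox, with no Skp2 allele named. Both groups thus carry Osx1-Cre, a recombinase under the promoter of the osteoblast precursor gene Osx1 (Sp7), and floxed alleles of the tumour suppressors Rb1 and p53, which the Cre is meant to cut in the bone lineage alone. Replicate 1 of each group was male and replicates 2 and 3 were female. The comparison asks how expression differs when SKP2, the substrate-binding subunit of a ubiquitin ligase, is missing.

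Prostaglandins are short-lived lipids made from arachidonic acid. A phospholipase frees arachidonic acid from membranes, the cyclooxygenases COX-1 (gene Ptgs1) and COX-2 (gene Ptgs2) turn it into a common precursor, and terminal synthases make prostaglandin E2 (Ptges), prostacyclin (Ptgis) or prostaglandin D2 (Ptgds). The enzyme 15-hydroxyprostaglandin dehydrogenase (Hpgd) inactivates prostaglandin E2, and the receptors EP1 to EP4 (Ptger1 to Ptger4) carry its signal. In bone, prostaglandin E2 acts on osteoblasts and osteoclasts through these receptors, and COX-2 is the inducible cyclooxygenase of inflammation and of many tumours.

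The Ptgs2 promoter is known for binding sites that respond to inflammatory and growth signals, whereas Ptgs1 is regarded as a housekeeping gene. RefSeq promoter windows (GRCm38.p6, 250 bases before to 50 after the annotated gene start) were found for 8 of the 10 genes, all but Ptgis and Ptger1. The windows of both cyclooxygenases and of Ptges, the synthase that acts after them, are shown because these 3 genes had the highest levels per length in DKO tumours. Capitals mark matches, on either strand, to any of 7 motifs. These were the TATA box (TATAAA), the core of cAMP response elements (CGTCA), the AP-1 motif (TGANTCA), an NF-kB type motif in which GGG and CC stand 5 bases apart, the C/EBP type motif TTNCGNAA, the E-box CACGTG and the SP1 motif GGGCGG. The windows lie at chr1:150099781-150100080 on the plus strand for Ptgs2, chr2:36230176-36230475 on the plus strand for Ptgs1 and chr2:30903248-30903547 on the minus strand for Ptges, where the RefSeq start lies inside the longer GENCODE gene.
Ptgs2: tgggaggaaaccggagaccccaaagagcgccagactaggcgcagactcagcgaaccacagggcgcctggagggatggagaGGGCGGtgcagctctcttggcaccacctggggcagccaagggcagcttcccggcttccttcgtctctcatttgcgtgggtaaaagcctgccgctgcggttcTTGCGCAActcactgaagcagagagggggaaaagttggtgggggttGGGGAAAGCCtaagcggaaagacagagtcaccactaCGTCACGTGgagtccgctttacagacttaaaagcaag
Ptgs1: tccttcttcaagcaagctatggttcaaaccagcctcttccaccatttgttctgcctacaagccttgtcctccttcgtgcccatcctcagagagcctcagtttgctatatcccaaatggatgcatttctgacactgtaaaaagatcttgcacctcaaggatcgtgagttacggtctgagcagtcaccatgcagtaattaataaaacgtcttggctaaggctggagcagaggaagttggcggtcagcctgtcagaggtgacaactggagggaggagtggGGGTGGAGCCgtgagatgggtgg
Ptges: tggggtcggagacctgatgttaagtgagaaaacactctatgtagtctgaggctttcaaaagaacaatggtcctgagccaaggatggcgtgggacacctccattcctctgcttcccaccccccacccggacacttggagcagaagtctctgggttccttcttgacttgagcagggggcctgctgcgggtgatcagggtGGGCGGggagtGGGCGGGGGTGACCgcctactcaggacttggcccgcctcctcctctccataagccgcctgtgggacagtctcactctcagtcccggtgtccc

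The Ptgs2 window held 1 match each to the cAMP, E-box, C/EBP, NF-kB and SP1 motifs. Its cAMP and E-box matches overlapped in a single stretch that began 13 bases after the annotated start. Of 32851 promoter windows, 20.8% held the cAMP motif, 7.15% the E-box, 2.47% the C/EBP motif, 50.8% the NF-kB motif and 35.7% the SP1 motif. The Ptgs1 window held a match to the NF-kB motif alone among the 7, and the Ptges window 1 match to the NF-kB motif and 2 to the SP1 motif, the nearer of which to the start overlapped the NF-kB match. The TATA motif, found in 13.6% of all windows, occurred in 1 of the 8 windows, that of Hpgd, and the AP-1 motif, found in 7.81%, in that of Ptgds. The Hpgd match began 4 bases after the RefSeq start of its window, and the NF-kB match of Ptgs1 27 bases after its own. These matches describe the letters of the reference and not binding in the tumours.

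The libraries held 17063231 to 22488819 gene counts. Skp2 had 0 counts in each TKO library and 20, 64 and 46 counts in DKO1, DKO2 and DKO3. TKO1 stood apart from the other tumours of its group, with a Pearson correlation of log2 CPM across genes of 0.830 with TKO2 and 0.805 with TKO3, against 0.915 between TKO2 and TKO3 and 0.933 to 0.954 among DKO tumours. Osteoblast markers differed widely: the bone alkaline phosphatase Alpl had 2 counts in TKO1, 31634 in TKO2 and 40108 in TKO3, against 176, 15 and 304 in DKO1, DKO2 and DKO3, and Sp7, whose promoter drives the Cre, was at 0 counts in TKO1 and DKO2. Runx2, the earlier osteoblast factor, was expressed in all 6 (58.4 to 241 CPM). Epithelial markers summed to 575 CPM in TKO1, 14.3 CPM in TKO2 and 18.0 CPM in TKO3, against 0.0996 to 2.96 CPM in DKO. Krt18 alone made up 543 CPM of the TKO1 sum, Epcam was at 0 in DKO, and 2 of 3 tested, Cdh1 and Epcam, were higher in TKO. Muscle markers summed to 497 to 10618 CPM in TKO and 4.33 to 14.6 CPM in DKO, with 7 of 9 called higher, and erythroid markers to 88.8 to 1167 CPM in TKO and 0.498 to 1.28 CPM in DKO. Each tumour has a code of its own in the labels and each group holds both sexes. The p-values set the difference between the groups against the spread among tumours of the same group, in which sex is included. CPM values (normalised counts) below are relative to the library total multiplied by its TMM factor, and adjusted p-values are those of edgeR's quasi-likelihood test with Benjamini-Hochberg adjustment over all 15361 genes tested, with a threshold of 0.05.

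None of the 10 genes passed the edgeR test at that threshold. Of the 8 that had enough counts to be tested, 7 had an unadjusted p under 0.05; DESeq2 called 7, 2 higher and 5 lower in TKO, and limma-voom called Ptgs2 alone. Over the whole table, in edgeR 7.36% of all tested genes passed (4.89% higher, 2.47% lower in TKO) and 25% had an unadjusted p under 0.05, while DESeq2 called 18.8% (11.6% higher, 7.22% lower) and limma-voom 7.32% (4.32% higher, 2.99% lower). In CPM, 6 of the 10 genes were lower in every TKO tumour than in any DKO tumour (Ptgs1, Ptgs2, Ptges, Ptger2, Ptger3 and, at 18 counts or fewer and reversed in a single-strand column, Ptger1), Hpgd was higher in every TKO tumour, and Ptgis, Ptgds and Ptger4 overlapped. Of the 8 tested members alone, 6 had groups that did not overlap, 5 of them with TKO below. By the same measure, 32.9% of the tested genes had groups that did not overlap, 17.3% with TKO above and 15.6% with TKO below. The median log2 fold change of the 8 tested members was -2.03, against 0.09 over all genes tested. The libraries are of bulk RNA, in which fewer cells of a type and less RNA per cell cannot be told apart for a member. The groups also differed in markers of other cells. Macrophage markers were called higher in TKO in 11 of 12 cases, endothelial ones in 10 of 10 and erythroid ones in 4 of 4 tested. Fibroblast markers were called in 0 of 10. C1qa, C1qb, C1qc, Emcn, Cldn5 and Hbb-bs had 0 counts in every DKO library. Summed over each group, the leukocyte gene Ptprc had 4204 counts in TKO and 3 in DKO. The endothelial gene Pecam1 had 6136 and 17, and Hbb-bs 20190 and 0. Cd68, the macrophage marker that was not called, still had 4024 counts in DKO. The groups thus differ in such markers as well as in genotype, and these cannot be told apart for a member. The part of this in the members was not tested.

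**Figure D1:**
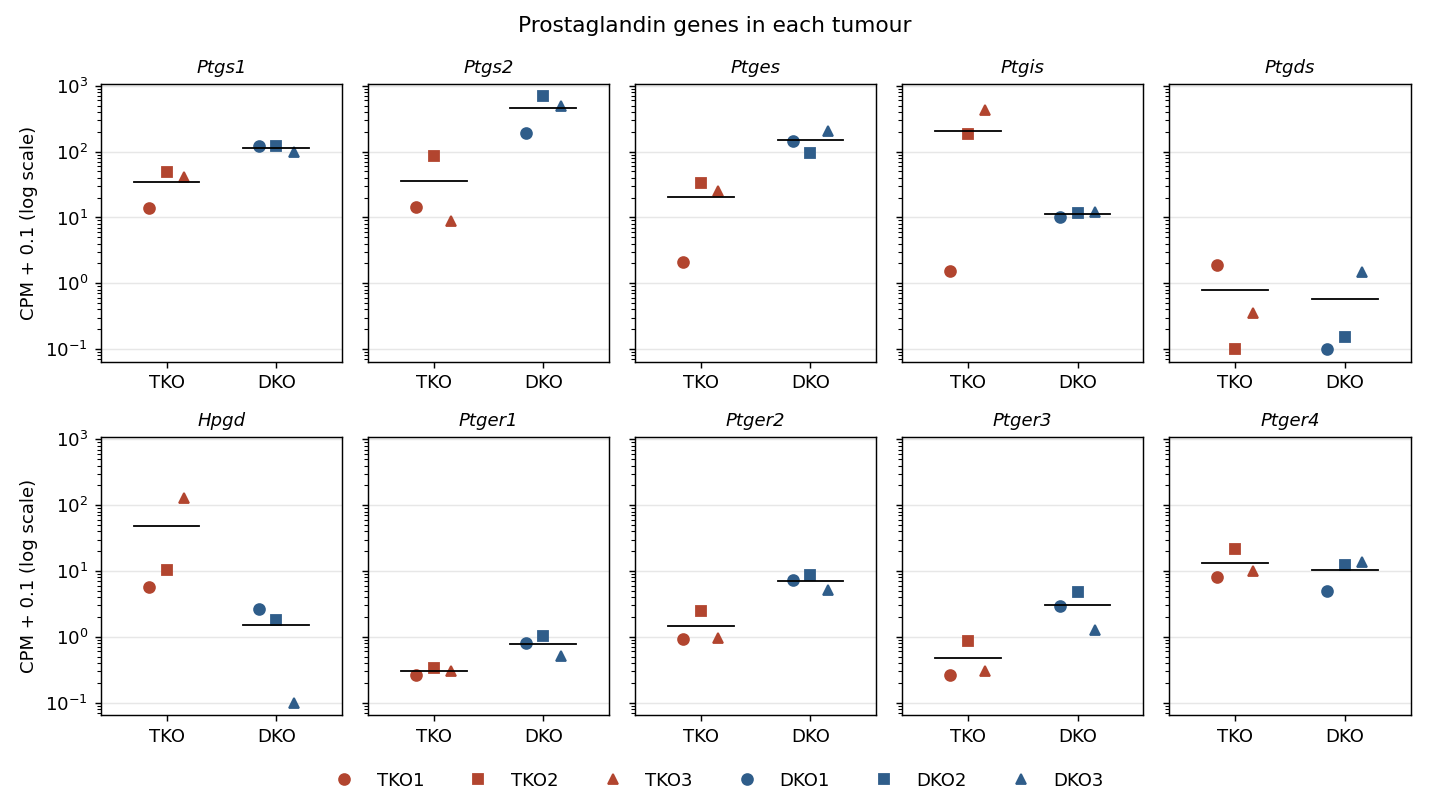
CPM of the 10 genes in each tumour, plotted as CPM + 0.1 on a log axis, with TKO tumours in red and DKO tumours in blue; the black line is the group mean. Ptgs2 lay at 8.77 to 84.3 CPM in TKO and 191 to 694 CPM in DKO, and the TKO1 point (red circle) was the lowest of the 6 for Ptgs1, Ptges and Ptgis.

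The cyclooxygenase genes were both lower in TKO tumours. Ptgs2 (ENSMUSG00000032487.8, chromosome 1, 150100031 to 150108227, GRCm38), which codes for the inducible COX-2, had 14.4, 84.3 and 8.77 CPM in TKO1, TKO2 and TKO3, against 191, 694 and 496 CPM in DKO1, DKO2 and DKO3. Every TKO value was under every DKO value, and TKO2 was the closest to the DKO range. The means were 35.8 ± 42.1 CPM in TKO and 460.4 ± 253 CPM in DKO (SD, n = 3 each), 12.9 times as high in DKO. The log2 fold change of Ptgs2 was -3.68 (SE 0.99), with an adjusted p of 0.0733 in edgeR. The spread in TKO rested on TKO2: without that tumour the log2 fold change was -5.30 and the call was made (adjusted p = 0.0355), where 2.97% of all genes were called, 1.74% higher and 1.22% lower. Ptgs2 was also called by limma-voom (adjusted p = 0.0351) and by DESeq2 (0.000473).

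Ptgs1 (ENSMUSG00000047250.13, chromosome 2, 36230426 to 36252272), which codes for the constitutive COX-1, had 13.8, 48.4 and 40.6 CPM in TKO1, TKO2 and TKO3, against 121, 124 and 97.3 CPM in DKO1, DKO2 and DKO3. The DKO tumours were close to each other and TKO1 was the lowest. The mean was 34.3 ± 18.2 CPM in TKO and 114 ± 14.5 CPM in DKO (SD, n = 3 each), a log2 fold change of -1.73 (SE 0.47, adjusted p = 0.0755 in edgeR). Without TKO1 the difference was smaller and less variable and passed (log2 fold change -1.36, adjusted p = 0.0215, where 14.6% of all genes were called, 9.61% higher and 4.94% lower). It also passed by DESeq2 (adjusted p = 0.0107) and in edgeR with no filter on low counts (0.0242), where 4.09% of 31330 genes were called, 2.59% higher and 1.49% lower. A gene on the opposite strand, Gm43621, shares 148 bases with the exons of Ptgs1, and reads in more than 1 gene were not counted. The 2 single-strand columns together held 1.20 to 1.31 times as many counts of Ptgs1, and the second of them gave nearly the same difference (log2 fold change -1.72, adjusted p = 0.0768).

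Per kilobase of exon, Ptgs2 made up 47%, 59.6% and 15.5% of the 2 cyclooxygenase genes in TKO1, TKO2 and TKO3, and 57.3%, 82.6% and 81.2% in DKO1, DKO2 and DKO3. TKO2 and DKO1 overlapped in this share, and 3 tumours against 3 cannot reach an exact permutation p below 0.1, so no test is given.

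Ptges (ENSMUSG00000050737.13, chromosome 2, 30889471 to 30929863), the inducible prostaglandin E2 synthase that works with COX-2, had 2.04, 33.4 and 24.7 CPM in TKO1, TKO2 and TKO3, against 146, 96.2 and 204 CPM in DKO1, DKO2 and DKO3. The groups were far apart, and TKO1 lay below the other TKO tumours. The mean was 20.1 ± 16.2 CPM in TKO and 149 ± 54.2 CPM in DKO (SD, n = 3 each), with a log2 fold change of -2.89 (SE 0.91, adjusted p = 0.109 in edgeR, 0.00723 in DESeq2 and 0.0172 in edgeR without TKO1). Between the male tumours, 1 in each group with TKO1 as the TKO tumour, the difference in log2 CPM was -6.09, and between the means of the female tumours it was -2.28. With 1 male tumour a group, sex and TKO1 cannot be told apart. The other prostaglandin E2 synthases did not follow: Ptges2, a membrane-associated synthase, averaged 22.0 ± 3.79 CPM in TKO and 23.7 ± 3.68 CPM in DKO (log2 fold change -0.10, SE 0.30), and Ptges3, a cytosolic synthase that is also the chaperone p23, 231 ± 39.7 and 195 ± 16.9 CPM (0.24, SE 0.26), all with n = 3 and SD. These 2 genes were named after their values were seen.

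Ptgis (ENSMUSG00000017969.13, chromosome 2, 167191805 to 167240604), the prostacyclin synthase of vessel walls and mesenchymal cells, had 1.46, 183 and 429 CPM in TKO1, TKO2 and TKO3, against 9.96, 11.7 and 11.9 CPM in DKO1, DKO2 and DKO3. The DKO tumours were close to each other, while TKO1 lay below them and TKO2 and TKO3 far above. With all tumours the log2 fold change was 4.19 (SE 1.52, adjusted p = 0.147 in edgeR and 0.00473 in DESeq2); without TKO1 it was 4.77 with an adjusted p of 0.00293 (9.61% of all genes called higher). The summed levels of osteoblast and of fibroblast markers were also lowest in TKO1 and highest in TKO3, though single markers did not all take this order. The summed level of 10 osteoblast markers was 3205, 34664 and 39696 CPM in TKO1, TKO2 and TKO3 and 10334 to 13553 CPM in DKO, with 1 of 9 tested members, Dmp1, higher in TKO and at 0 counts in all DKO libraries. That of 10 fibroblast markers was 2558, 30858 and 45947 CPM in TKO1, TKO2 and TKO3 and 12244 to 26027 CPM in DKO, with 0 of 10 called and none at 0 in a whole group. Most of the fibroblast sum in TKO2 and TKO3 was Col1a2 (1113, 20609 and 42211 CPM in TKO1, TKO2 and TKO3), whereas Col3a1 had 629, 8723 and 478 CPM. Most of the osteoblast sum was Spp1 in TKO1 (2911 CPM) and Col1a1 in the other tumours. Col1a1 had 209, 30231 and 26908 CPM in TKO1, TKO2 and TKO3 and 9947 to 11757 CPM in DKO. In DKO tumours Sp7, Bglap and Pth1r were at most 7.97, 0.237 and 12.1 CPM, while Runx2 was at 83.3 to 97.1 CPM. Endothelial markers were higher in TKO in 10 of 10 cases, with a summed level of 181 to 918 CPM in TKO and 9.86 to 11.4 CPM in DKO, where Emcn and Cldn5 were at 0. Pericyte and smooth muscle markers summed to 520 to 913 CPM in TKO and 185 to 502 CPM in DKO, with 5 of 9 tested higher and Tagln at 0 in DKO. The part of these markers in the result was not tested.

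Ptgds (ENSMUSG00000015090.13, chromosome 2, 25466709 to 25470046), the lipocalin-type prostaglandin D2 synthase, was at low counts, with 43, 0 and 5 counts in the TKO libraries and 0, 1 and 23 counts in the DKO libraries. A count of 0 allows up to 3 counts, a limit that covers counting error only. It did not pass the filter on low counts, and without that filter edgeR gave a log2 fold change of 0.53 (adjusted p = 0.890).

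Hpgd (ENSMUSG00000031613.9, chromosome 8, 56294585 to 56321043), which degrades prostaglandin E2, was the tested member with the largest SE. It had 5.63, 10.5 and 131 CPM in TKO1, TKO2 and TKO3, against 2.59, 1.69 and 0 CPM in DKO1, DKO2 and DKO3. Each TKO value was above each DKO value, and TKO3 alone held most of the TKO counts (2569, against 135 in TKO1 and 217 in TKO2). The log2 fold change was 5.09 (SE 1.73, adjusted p = 0.128 in edgeR, 0.00314 in DESeq2), and 2.49 with an adjusted p of 0.357 without TKO3. Per kilobase, the level of Ptges was 0.155, 1.37 and 0.0808 times that of Hpgd in TKO1, TKO2 and TKO3 and 24.1 and 24.4 times that of Hpgd in DKO1 and DKO2; in DKO3 Hpgd was at 0.

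The receptors for prostaglandin E2 showed different patterns. Ptger2 (ENSMUSG00000037759.6, chromosome 14, 44988195 to 45003820), coding for EP2, which raises cAMP, had 0.834, 2.41 and 0.867 CPM in TKO1, TKO2 and TKO3, against 7.12, 8.48 and 5.05 CPM in DKO1, DKO2 and DKO3. The mean was 1.37 ± 0.901 CPM in TKO and 6.88 ± 1.73 CPM in DKO (SD, n = 3 each; log2 fold change -2.32, SE 0.64, adjusted p = 0.0765 in edgeR and 0.00173 in DESeq2). Exons of Ptger2 share 246 and 144 bases with the opposite-strand genes Gm17173 and Gm49364, so that some of its reads were not counted. The 2 single-strand columns together held 1.24 to 1.64 times as many counts of Ptger2. In the second of them the edgeR log2 fold change was -2.10 (SE 0.72, adjusted p = 0.132). Ptger3 (ENSMUSG00000040016.16, chromosome 3, 157566892 to 157645888), coding for EP3, which lowers cAMP, had 0.167, 0.772 and 0.204 CPM in TKO1, TKO2 and TKO3, against 2.89, 4.65 and 1.19 CPM in DKO1, DKO2 and DKO3 (log2 fold change -2.92, SE 0.88, adjusted p = 0.0962 in edgeR and 0.0101 in DESeq2). For both genes TKO2 was the highest TKO tumour and still under the lowest DKO tumour.

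Ptger4 (ENSMUSG00000039942.15, chromosome 15, 5206661 to 5244187), coding for EP4, the other receptor that raises cAMP, did not separate the groups. It had 8.17, 21.4 and 10.04 CPM in TKO1, TKO2 and TKO3, against 4.88, 12.5 and 13.6 CPM in DKO1, DKO2 and DKO3, with overlapping groups. The log2 fold change was 0.36 (SE 0.58, adjusted p = 0.742 in edgeR), and -0.17 (adjusted p = 0.897) without TKO2. Exons of Ptger4 share 1015 bases with the opposite-strand pseudogene Gm15937 and 82 with Ttc33, and the 2 single-strand columns together held 1.20 to 2.13 times as many counts of Ptger4. The second of them gave a log2 fold change of 0.59 (adjusted p = 0.457). Ptger4 lies 3.91 megabases from Skp2 on the same chromosome.

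Ptger1 (ENSMUSG00000019464.6, chromosome 8, 83666678 to 83672753), coding for EP1, which signals through calcium, could not be measured well. It had 4, 5 and 4 counts in the TKO libraries and 14, 18 and 7 counts in the DKO libraries, in the order of their numbers, and did not pass the filter on low counts. Without that filter edgeR gave a log2 fold change of -1.75 (adjusted p = 0.429). In the second single-strand column it had 1315, 880 and 1178 counts in the TKO libraries and 396, 213 and 245 counts in the DKO libraries. There edgeR called it higher in TKO (log2 fold change 1.81, adjusted p = 0.0255, where 7.26% of all genes were called, 4.63% higher and 2.62% lower), the opposite of the difference in the either-strand counts. The 2 single-strand columns together held 25.5 to 626.5 times as many counts of Ptger1 as the either-strand column. The libraries do not mark strand, so neither column settles the level of Ptger1, and no direction is read from it.

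As a share of the 4 receptor genes per kilobase of exon, Ptger4 held 84.8%, 83.3% and 86.3% in TKO1, TKO2 and TKO3, against 26.8%, 41.7% and 61.9% in DKO1, DKO2 and DKO3, all from the either-strand counts. The groups did not overlap, and the TKO tumours lay close together (SD 1.48 percentage points). Ptger2 made up 11.1%, 12.01% and 9.53% in TKO1, TKO2 and TKO3, against 50%, 36.3% and 29.4% in DKO1, DKO2 and DKO3. Left to Ptger2, Ptger3 and Ptger4, the share of Ptger4 was 86.6%, 84.3% and 88.2% in TKO1, TKO2 and TKO3, against 28.1%, 43.3% and 63.4% in DKO1, DKO2 and DKO3. The unsettled level of Ptger1 turns the 4-gene shares over: in the second single-strand column Ptger1 held 75.4% to 91% in TKO and 41.5% to 67.5% in DKO, and Ptger4 held 7.93% to 19.3% in TKO and 10.6% to 27% in DKO, with overlapping groups. These shares were added after the data were seen.

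**Figure D2:**
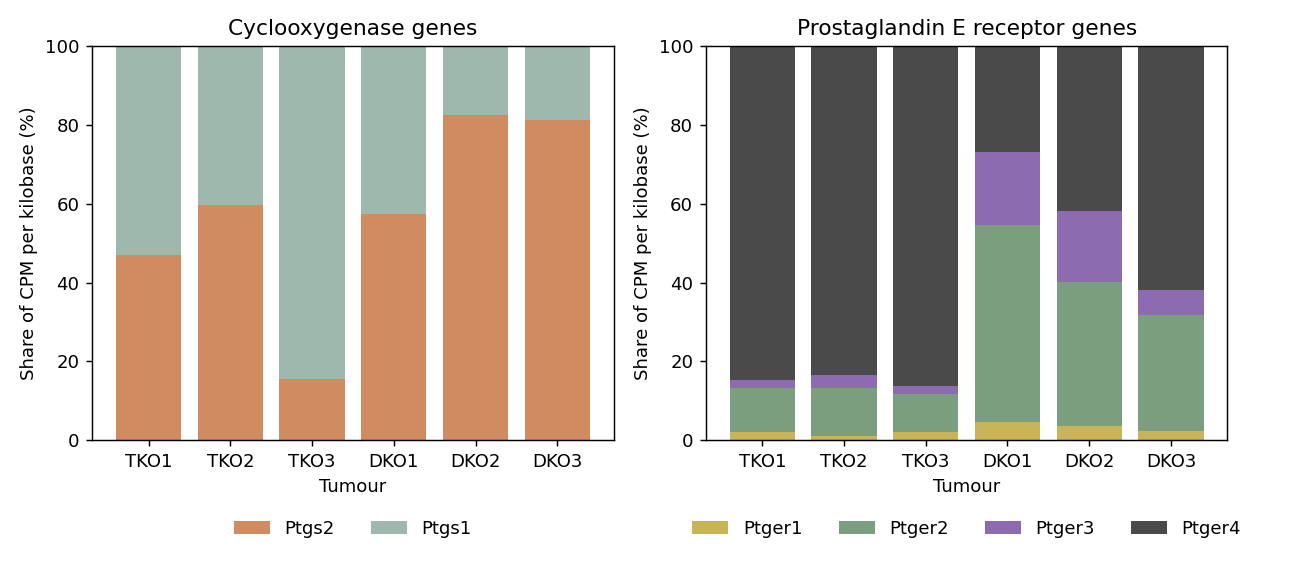
Share of each gene in the summed CPM per kilobase of exon of Ptgs1 and Ptgs2 (left) and of Ptger1 to Ptger4 (right), 1 bar per tumour. Ptger4 takes 83.3% to 86.3% of the receptor total in the TKO tumours and 26.8% to 61.9% in the DKO tumours in these either-strand counts, and 7.93% to 19.3% in TKO and 10.6% to 27% in DKO in the second single-strand column, where Ptger1 holds the most.

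The order of the genes differed between the groups. Per kilobase of exon, Ptgs2 was the highest in DKO (101 ± 55.3 CPM per kilobase), followed by Ptges (37.9 ± 13.8) and Ptgs1 (29.4 ± 3.74). The range of Ptges overlapped with those of Ptgs2 above it and Ptgs1 below it. Ptgis (4.35 ± 0.412) was apart from Ptgs1 above it and from Ptger4 (1.55 ± 0.713) below it. From Ptger4 down, through Ptger2, Hpgd and Ptger3 to Ptgds, neighbours in the DKO order overlapped (SD, n = 3 throughout). Ptger1, whose level differs between the count columns, has no place in either order. In TKO the order began with Ptgis (79.8 ± 83.7 CPM per kilobase), Hpgd (29.1 ± 42.2), Ptgs1 (8.82 ± 4.68), Ptgs2 (7.82 ± 9.19), Ptges (5.10 ± 4.12) and Ptger4 (1.99 ± 1.08), each overlapping with the next (SD, n = 3). Ptger4 was apart from Ptgds below it and Ptger2 from Ptger3, while Ptgds and Ptger2 overlapped.

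**Figure D3:**
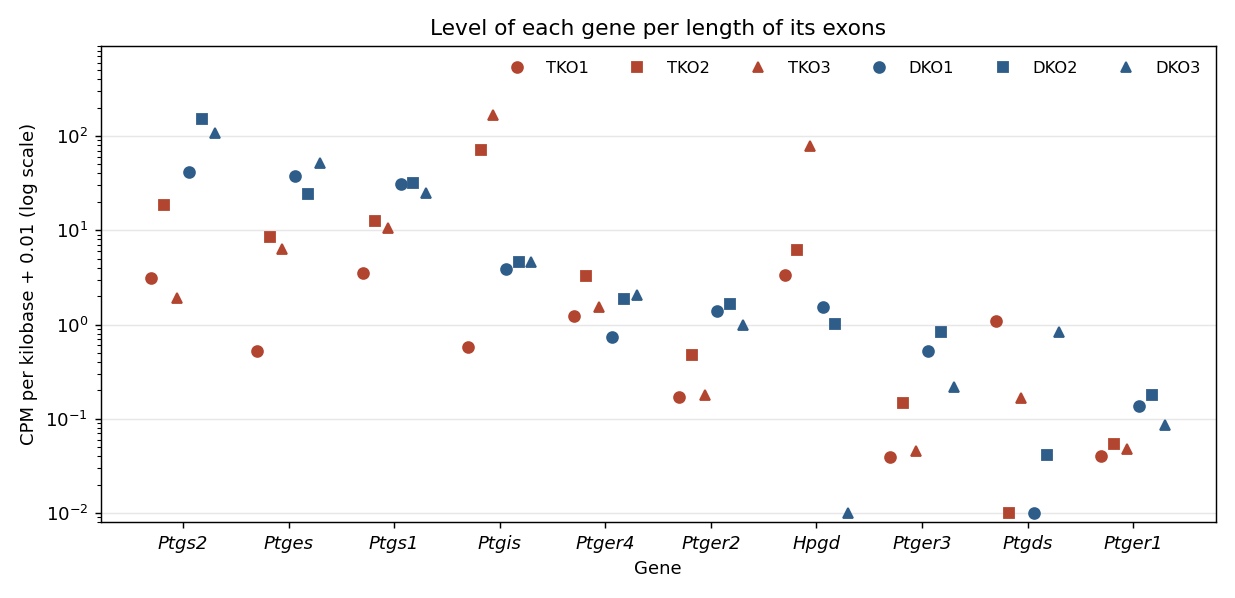
Level of each gene per kilobase of its merged exons in each tumour, as CPM per kilobase + 0.01 on a log axis, from the either-strand counts (which do not settle Ptger1), with genes in the order of their DKO means and TKO tumours in red, DKO tumours in blue. Ptgs2, Ptges and Ptgs1 head the DKO order with 101, 37.9 and 29.4 CPM per kilobase, and Ptgis heads the TKO order with 79.8.

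Upstream of the cyclooxygenases, 13 of 18 listed genes of phospholipases and related lipid hydrolases could be tested, of which 1 rose and 2 fell (median log2 fold change -0.11). For this list and those below, the edgeR shares over all tested genes were 4.89% higher and 2.47% lower. Pla2g4a, the cytosolic phospholipase that frees arachidonic acid for prostaglandin synthesis, fell in TKO tumours (18.3, 41.7 and 49.6 CPM in TKO1, TKO2 and TKO3), against 186, 205 and 160 CPM in DKO1, DKO2 and DKO3 (log2 fold change -2.33, SE 0.41, adjusted p = 0.0267 in edgeR). The groups were well apart, as for the cyclooxygenases. The secreted phospholipase gene Pla2g2e fell in TKO tumours (0.834, 0.145 and 0.051 CPM), against 15.2, 6.74 and 13.1 CPM in DKO1, DKO2 and DKO3 (log2 fold change -5.04, SE 1.06, adjusted p = 0.0377). Pla2g7, a macrophage enzyme that hydrolyses platelet-activating factor, rose in TKO tumours (34.7, 74.1 and 76.5 CPM in TKO1, TKO2 and TKO3), against 0.448, 2.25 and 0.475 CPM in DKO1, DKO2 and DKO3 (log2 fold change 5.86, SE 0.82, adjusted p = 0.0164).

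Among 15 further prostanoid enzymes and carriers, all tested, 2 rose and 0 fell (median log2 fold change 0.26). Both are terminal prostanoid synthases. Hpgds, the haematopoietic prostaglandin D2 synthase, had 7.79, 21.1 and 19.3 CPM in TKO1, TKO2 and TKO3 and 0.0498, 0.153 and 0.0594 CPM in DKO1, DKO2 and DKO3 (log2 fold change 7.41, SE 0.78, adjusted p = 0.0111). Tbxas1, the thromboxane synthase of platelets and macrophages, had 14.1, 12.8 and 15.4 CPM in TKO1, TKO2 and TKO3 and 0.349, 0 and 0.237 CPM in DKO1, DKO2 and DKO3 (log2 fold change 6.13, SE 1.03, adjusted p = 0.0243). Macrophage markers rose in 11 of 12 cases, with a summed level of 886 to 2670 CPM in TKO and 8.81 to 125 CPM in DKO, where C1qa, C1qb, C1qc and Itgam were at 0 counts. Cd68, the marker that was not called, made up most of the DKO sums (5.48, 122 and 90.8 CPM in DKO1, DKO2 and DKO3). Platelet markers summed to 18.6 to 47.2 CPM in TKO and 8.57 to 16.1 CPM in DKO, with 1 of 4 tested, Pf4, called higher. Gp9 and Gp1bb were at 0 in DKO (Gp1bb with 1 count in TKO), Treml1 was at 0 in both groups, and Itga2b and Gp1ba had log2 fold changes of -0.69 and -0.62. Markers of mast cells, another known source of Hpgds, summed to 2.29 to 34.8 CPM in TKO and 3.04 to 5.93 CPM in DKO, with 0 of 2 tested called and 5 of 8 at 0 in DKO, of which Fcer1a was at 0 in TKO too. The part of these cells in the rise was not tested.

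Of 5 receptors for other prostanoids 3 could be tested, and 1 fell. Ptgir, the prostacyclin receptor, had 1.25, 1.16 and 1.68 CPM in TKO1, TKO2 and TKO3, against 12.3, 40.1 and 31.0 CPM in DKO1, DKO2 and DKO3 (log2 fold change -4.34, SE 0.57, adjusted p = 0.0144). All 3 TKO tumours were alike in Ptgir, including TKO1, although they differed widely in Ptgis, the gene of the synthase that makes its ligand. In the leukotriene branch, the other route from arachidonic acid, 9 of 16 listed gene IDs were tested and 3 rose (median 2.87): Alox5, the 5-lipoxygenase, at 26.1, 4.53 and 3.06 CPM in TKO1, TKO2 and TKO3 against 1 count over all DKO libraries, a ratio of 682.5 (exact 95% interval 122 to 26990, for counting error over pooled reads only; adjusted p = 0.0243); Alox5ap, its activating protein, at 3.00, 4.58 and 5.05 CPM in TKO and 5 counts over the DKO libraries (adjusted p = 0.0491); and Cysltr1, a receptor for cysteinyl leukotrienes, at 3.38, 8.29 and 3.93 CPM in TKO and 0.149, 0.0511 and 0.178 CPM in DKO (log2 fold change 5.31, SE 0.80, adjusted p = 0.0185). TKO1 held 626 of the 780 TKO counts of Alox5, whose fitted log2 fold change was 8.88 with all tumours and 7.30 without TKO1 (adjusted p = 0.0120). Between the groups, the macrophage markers given above moved the same way. Within TKO, Alox5 was highest in TKO1, where the macrophage sum was lowest (886, 2670 and 2309 CPM in TKO1, TKO2 and TKO3). Alox5ap and Cysltr1 were lowest in TKO1, as was the neutrophil sum (15.7, 58.9 and 19.8 CPM in TKO1, TKO2 and TKO3). Neutrophil markers summed to 15.7 to 58.9 CPM in TKO and 1.43 to 4.43 CPM in DKO, where Cxcr2, S100a9, Csf3r and Ngp were at 0, and 3 of 6 tested were higher. Their part in the leukotriene genes was not tested.

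Of 21 listed inducers, regulators and co-induced genes of Ptgs2, all tested, 0 rose and 3 fell (median log2 fold change -0.87). Il1rap, the shared subunit of the interleukin-1 receptor, whose signal induces Ptgs2, fell in TKO tumours (24.8, 11.9 and 10.4 CPM in TKO1, TKO2 and TKO3), against 156, 93.2 and 92.8 CPM in DKO1, DKO2 and DKO3 (log2 fold change -2.86, SE 0.45, adjusted p = 0.0210). The immediate early factor gene Egr1 fell to 40.0, 31.1 and 51.0 CPM in TKO, against 181, 249 and 309 CPM in DKO (log2 fold change -2.60, SE 0.34, adjusted p = 0.0144). Nos2, the inducible nitric oxide synthase gene that inflammatory signals switch on together with Ptgs2, had 2.29, 12.4 and 4.59 CPM in TKO tumours and 94.7, 199.8 and 754 CPM in DKO tumours and fell by 5.76 on the log2 scale (SE 1.08, adjusted p = 0.0303). The interleukin-1 beta gene Il1b ran the other way in its levels, at 1.88, 12.3 and 2.29 CPM in the TKO tumours and 0, 0.255 and 0 CPM in the DKO tumours (adjusted p = 0.0681; named after its values were seen). Of 20 listed genes of cAMP signalling, the signal that EP2 and EP4 raise, 0 were called by edgeR (median log2 fold change -0.02). The list joins genes that act before cAMP, such as the adenylate cyclases Adcy3 and Adcy7, with genes that respond to it. Its count and median therefore do not describe the response alone. The 3 with the smallest p were Adcy7 (log2 fold change 2.58, adjusted p = 0.0549), Areg (-3.58, 0.161) and Adcy3 (1.93, 0.166). At an unadjusted p under 0.05 in edgeR, the cAMP list had 4 of 20 genes, against 25% of all tested genes. DESeq2 called 2 of the 20, against 18.8% of all tested genes.

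Few genes of the whole table passed when a DKO tumour was left out: 39 without DKO1, 2 of 16323 without DKO2 and 0 of 16553 without DKO3. All 12 related genes lost their call without DKO2 and without DKO3, and 11 of the 12, all but Ptgir, without DKO1. The size of the change moved little for Pla2g4a (log2 fold change -2.33 with all tumours, -2.26 without DKO2, -2.42 without DKO3) and for Egr1 (-2.60, -2.61 and -2.38). Pla2g4a, Pla2g2e, Tbxas1, Alox5ap, Nos2 and Il1rap were also lost without TKO2 and without TKO3, where 475 and 331 genes passed in all. Nos2 was lost with no filter (adjusted p = 0.0808) and among genes at 1 CPM or more in each group (0.0639), where Pla2g4a was lost as well (0.0591), and Alox5ap with library totals as the scaling (0.0518). Their direction held in each of the alternatives in which they were tested.

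**Figure D4:**
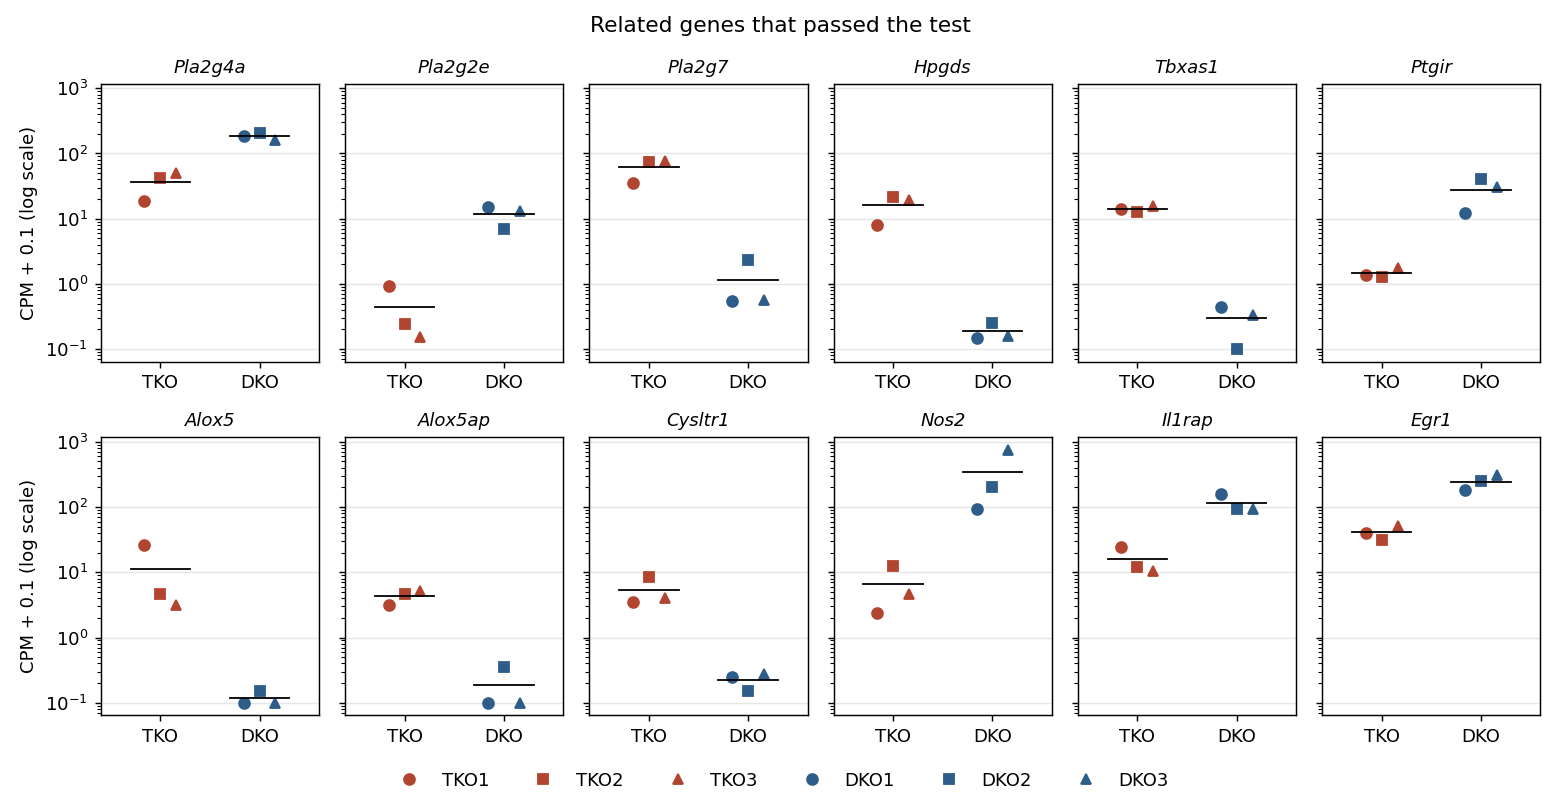
CPM + 0.1 on a log axis in each tumour for the 12 related genes that passed the edgeR test, with TKO tumours in red and DKO tumours in blue and the group mean as a black line. Pla2g4a, Pla2g2e, Ptgir, Nos2, Il1rap and Egr1 were lower in TKO (Pla2g4a 18.3 to 49.6 against 160 to 205 CPM), and Pla2g7, Hpgds, Tbxas1, Alox5, Alox5ap and Cysltr1 were higher.

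The genes whose profiles over the 6 tumours were most like those of the members were sought among 11417 genes, as the smallest root mean square difference of centred log2 CPM. For Ptgs1 it was P4ha1, a collagen prolyl hydroxylase subunit, at 0.17 log2 units, followed by Mr1 (0.17) and Helz2 (0.20). For Ptgs2 it was Ccl2, the monocyte chemoattractant gene, at 0.36, at 9.54, 45.9 and 8.72 CPM in the TKO tumours and 167, 379 and 469 CPM in the DKO tumours, followed by Fam171b (0.44) and Htr2a, a serotonin receptor (0.49). For Ptges it was Xdh, xanthine dehydrogenase, at 0.15, with 11.8, 149 and 126 CPM in TKO and 793, 560 and 926 CPM in DKO, followed by the laminin chain Lama4 (0.38) and Nnmt (0.42). Ptger2 was nearest to Plat, the tissue plasminogen activator (0.22), Fas (0.22) and Sgcd (0.23), and Ptger4 to Pfkm, a phosphofructokinase (0.18), Cox11 (0.21) and Hdac5 (0.23). For Ptgis and Hpgd no gene came as near: Fgfr3 differed from Ptgis by 0.63, as did Pygo1 and Smad6 by 0.64 each, and Fap, a protease of activated fibroblasts, differed from Hpgd by 0.84, followed by Pdzd2 (1.02) and Rab11fip4 (1.07). All these are descriptions over 6 tumours of 2 groups.

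**Figure D5:**
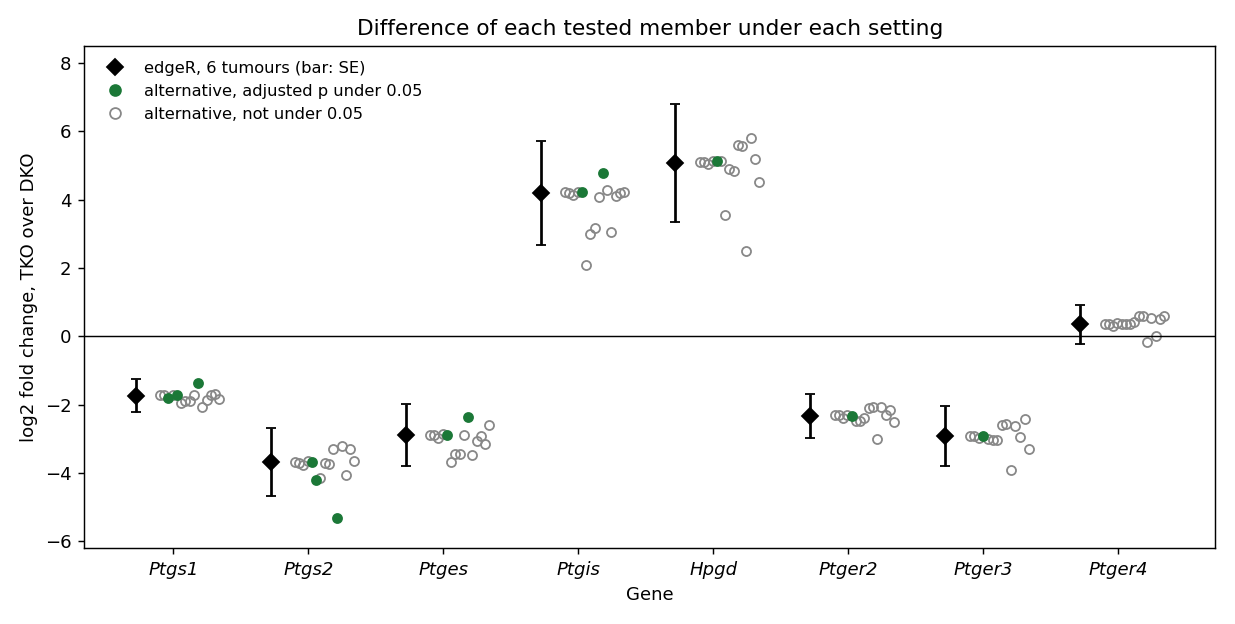
Log2 fold change, TKO over DKO, of the 8 tested members: the black diamond is the edgeR fit of all 6 tumours with its SE, and each circle an alternative setting, filled in green where the adjusted p was under 0.05. The 5 genes that were lower in TKO stayed below 0, Ptgis and Hpgd stayed above 0, and Ptger4 ranged from -0.17 to 0.60.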

How the data were processed

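RNA of 3 TKO and 3 DKO osteosarcomas was sequenced, and the authors deposited raw read counts per gene, as a table of the series and as per-library gene count files that give the same either-strand counts (0 genes differed). STAR 2.6.1 and mm10 are named in the submitters' processing notes, and no source used here states the annotation release. The files hold 1 count column for reads on either strand, which was used, and 2 for single strands. The first strand column held 50.2% to 51.3% of the reads of both, so the libraries do not mark strand. Reads assigned to no single gene made up 18.4% to 21.6% of each library and stayed out of library sizes. Gene names, positions and merged exon lengths were taken from GENCODE M21 (GRCm38), which matched 55240 of 56196 gene IDs.

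Genes were filtered with filterByExpr (minimum count 10), scaled by TMM and tested with edgeR 4.0.16 (quasi-likelihood, robust, group as the only term, R 4.3.3), with Benjamini-Hochberg adjustment over 15361 genes. DESeq2 1.42.0, limma-voom (limma 3.58.1), other scalings and filters, a replicate block, sex as a covariate, a single-strand column and leaving out each tumour were the alternatives. Nearest profiles used log2 CPM with a prior count of 2, for members reaching 5 CPM in a tumour. Fold changes are TKO over DKO. The scripts were tested on simulated data. The members and lists were chosen with earlier results of these data known. The genes named were the members, list genes past 0.05 and, for a list with none, the 3 with the smallest p, the nearest profiles and Skp2; others are marked as named after their values were seen. An item withheld for evaluation is not reported here.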

Additional observations from a re-analysis of the deposited data

Results flagged for a closer look

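Ptgis, the prostacyclin synthase gene, differed in opposite directions in male and female tumours. The log2 difference of TKO over DKO was -2.69 between the male tumours, 1 in each group, and 4.56 between the means of the female tumours, 2 in each group. A term for the interaction of genotype and sex in edgeR had an adjusted p of 0.0971, with a spread that comes from the female tumours alone, so the difference did not pass the threshold, and no gene of the table did (2504 had an unadjusted p under 0.05). The male TKO tumour is TKO1, the library that stands apart from the others of its group, and sex and that library cannot be told apart here.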

How the results depend on the processing

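Over 119 refits of the 8 tested members, 105 kept the direction and the side of the threshold of the reported value, 13 passed the threshold in the same direction and 1 reversed: Ptger4, with a log2 fold change of 0.36 in the reported fit and -0.17 to 0.60 when a tumour was left out, the lowest without TKO2. The number of members called, 0 in the reported fit, was 7 by DESeq2, 1 by limma-voom (Ptgs2), 1 with no filter (Ptgs1), 1 in the single-strand column (Ptger1) and 0 to 3 when a tumour was left out. Of all genes, 1131 were called, against 2893 by DESeq2, 158 among those at 1 CPM or more in a tumour of each group, and 0 (without DKO3) to 2385 (without TKO1) when a tumour was left out. Of the related genes, 12 were called, against 24 by DESeq2, 4 at 1 CPM or more in each group, and 0 to 22 when a tumour was left out. Where fewer genes or samples entered, the fit itself differs; otherwise the cause was not tested.

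No pairing by replicate number was seen beyond the match in sex. Same-numbered tumours had correlations of their deviations from the group means of -0.00699, 0.00889 and -0.0167. With 3 tumours a group, such values cannot show that the samples are unpaired. With the replicate block 295 genes, 0 members and 6 related genes were called, 5 of them among the 12. With 3 tumours a group, low counts limit Ptgds, Ptger1 and Ptger3.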

Other observations

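The related genes below were not called and were named after their values were seen. The secreted phospholipase gene Pla2g5 had 0, 23.3 and 163 CPM in the TKO tumours and at most 0.153 CPM in any DKO tumour, and did not pass the filter on low counts. The prostaglandin F receptor gene Ptgfr had 0.542, 58.0 and 1.89 CPM in TKO1, TKO2 and TKO3, against 16.5, 9.86 and 3.86 CPM in DKO1, DKO2 and DKO3, so that a single TKO tumour was above the DKO range. Il6, an inflammatory cytokine gene, had 0.208, 5.64 and 1.53 CPM in TKO1, TKO2 and TKO3, against 17.8, 52.6 and 37.1 CPM in DKO1, DKO2 and DKO3 (log2 fold change -3.86, SE 1.09, adjusted p = 0.0828 in edgeR). Every TKO value of Il6 was under every DKO value. The interleukin-1 receptor gene Il1r1 was also lower in every TKO tumour than in any DKO tumour (56.6, 75.5 and 21.5 CPM, against 217, 175 and 206 CPM in DKO tumours; log2 fold change -1.96, SE 0.47, adjusted p = 0.0531 in edgeR).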
